A study of Aspergillus nidulans with 12 samples.

Results

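The genes described here had a lower mean level with CdCl2 in the reference strain of *Aspergillus nidulans* and a higher one in the Δ*atfA* mutant. They were chosen on the deposited RPKM values (reads per kilobase of transcript, scaled to the total of each library). The mean of 3 libraries was taken in each group, and L was the log2 ratio of the CdCl2-treated to the untreated mean, each plus 1 RPKM. Genes with L of -0.4 or lower in the reference strain and 0.4 or higher in the mutant were members. The rule gave 68 of 10988 genes, 59 with an AN identifier and 9 transfer RNA genes. Since the rule used both CdCl2 responses, these responses are given as a description and carry no test.

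AtfA is a bZIP transcription factor of fungi that acts with the stress-activated MAP kinase SakA, the relative of Hog1 in baker's yeast. Signals reach SakA through a phosphorelay, in which histidine kinases sense a stress, a phosphotransfer protein passes the phosphate on, and response regulators start the kinase cascade. In this and related fungi the pathway is known for answering osmotic and oxidative stress and for the durability of conidia. Cadmium ions bind thiols such as glutathione and disturb the redox balance of the cell.

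The sequenced mycelia came from the reference strain THS30 (*pyrG89; AfupyrG+; pyroA4; pyroA+*) and from the Δ*atfA* mutant TNJ92 (*pyrG89; AfupyrG+; pyroA4; ΔatfA::pyroA*). Both strains thus carry the *pyrG89* and *pyroA4* alleles with complementing copies, and in TNJ92 the *pyroA* copy stands in place of *atfA*. Submerged cultures at 37 °C received 0.2 mM CdCl2 or none at 16 h and were sampled 0.5 h later. Each of the 4 groups had 3 biological replicates, and the mutant is a single strain, so that its effects cannot be told apart from others particular to this strain.

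The 12 libraries held 8721119 to 13641031 counts each. The deleted gene *atfA* (AN2911) had 178 ± 18.5 RPKM (SD, n = 3) in untreated and 141 ± 4.45 RPKM in CdCl2-treated THS30, against 14.6 ± 0.11 and 12.4 ± 2.26 RPKM in TNJ92. All 6 TNJ92 libraries were thus below all 6 THS30 libraries, though reads at this gene were not absent. The summed level of 10 markers of conidia and conidiophores, which submerged mycelia should hold at a low level, was 48.5 to 66.2 RPKM in untreated and 61.2 to 70.6 RPKM in CdCl2-treated THS30, and 30 to 112 and 38.8 to 54.3 RPKM in TNJ92. In no group were all 3 libraries of any of the 10 markers at 0. None of these markers was a member, and their part in the results was not tested.

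Members took 0.900 to 1.16% of the counts of an untreated THS30 library and 0.639 to 0.705% of a CdCl2-treated one. In TNJ92 they took 0.280 to 0.356% without and 0.468 to 0.518% with CdCl2. The share of TNJ92 was therefore below that of THS30 in both conditions. AN5245 alone took 0.193 to 0.485% of the counts of an untreated THS30 library and 0.200 to 0.281% of a CdCl2-treated one. In TNJ92 this gene took 0.0604 to 0.0757% without and 0.0923 to 0.125% with CdCl2. Much of the gap between the strains in treated cultures thus lay in AN5245. Fewer cells that express a gene and less RNA per cell cannot be told apart in such bulk samples. Of the 68 members, 58 passed the filter on low counts and were tested, 46 of them with at least 10 counts in every library. Of the remaining tested members, AN11461, AN12111, AN2817 and AN5408 reached 10 counts in all libraries of a group only in THS30. The 9 transfer RNA members had 2 to 60 counts over all 12 libraries, 7 of them at most 10, and AN11313 had 79. None of these 10 genes was tested.

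L of the members ran from -1.89 to -0.40 in THS30 and from 0.40 to 2.19 in TNJ92. Just inside the limits lay AN7378 (-0.40 and 1.05), *sakA* (-0.72 and 0.40) and AN3344 (-0.44 and 0.41). Just outside lay AN0386 (-0.40 and 1.31), AN4340 (-0.40 and 0.69) and AN3203 (-0.99 and 0.40), each of which missed a limit by less than the last digit printed. Membership was sensitive to single libraries, since 28 of the 68 genes were also chosen whichever of the 12 libraries was left out. RPKM are scaled by library totals, which place the median gene 0.13 (THS30) and 0.15 (TNJ92) higher on the log2 scale after CdCl2 than TMM scaling does. After rescaling by TMM factors the rule gave 83 genes, 58 of them among the 68, and *sakA*, *afeA*, AN3344, AN4462 and AN7138 were among the 10 members that left the set.

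**Figure D1:**
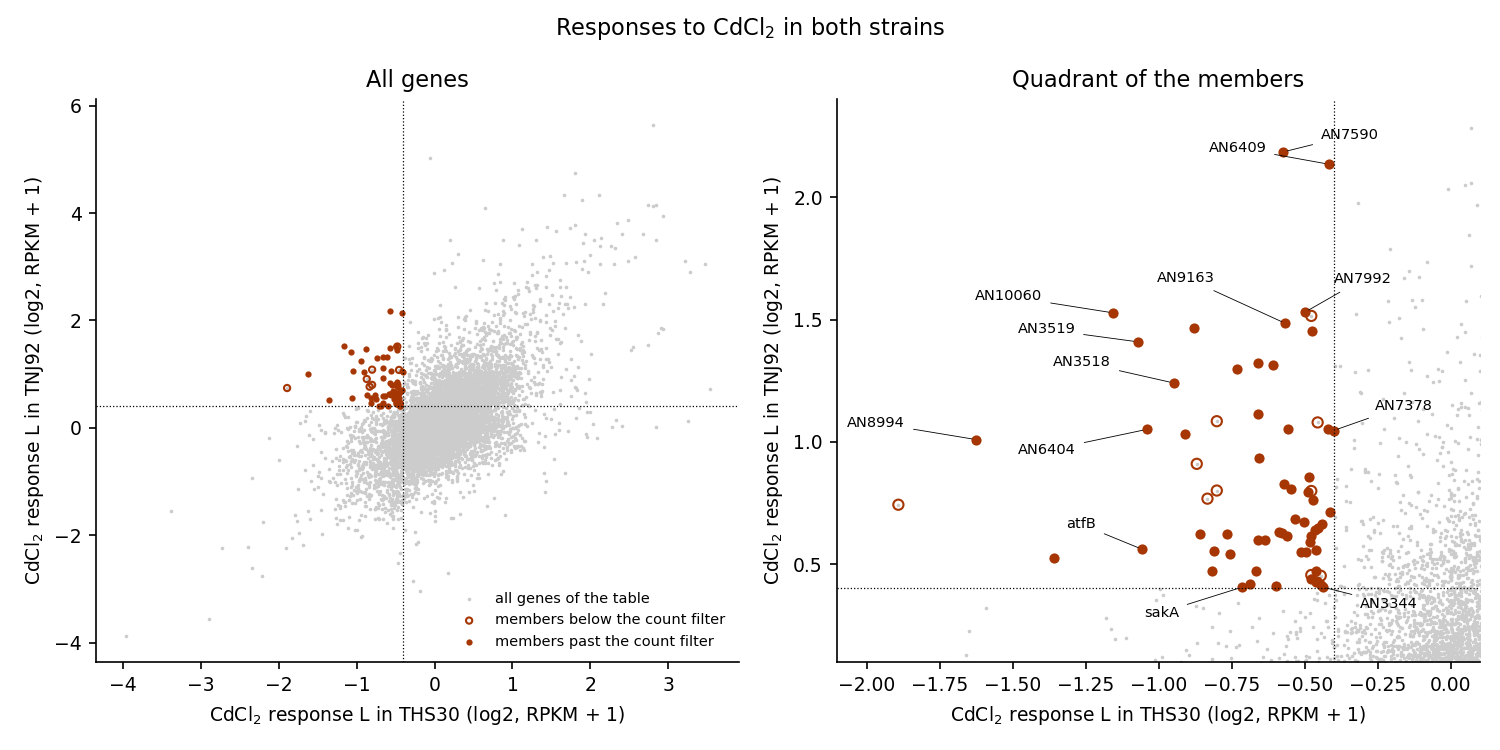
CdCl2 response L of each gene in THS30 (horizontal) and TNJ92 (vertical), log2 ratio of treated to untreated mean RPKM plus 1, for all genes and enlarged for the quadrant of the members. Dotted lines mark the limits of -0.4 and 0.4, filled circles the 58 members past the count filter and open circles the 10 below it.

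When the 4 libraries of 1 replicate number were kept out and the rule was run on the rest, most genes chosen kept both signs in the libraries kept out. Without replicate number 1, 2 or 3 the rule gave 67, 78 or 98 genes, of which 49, 50 or 53 were among the 68 members. Of the genes chosen, 52, 66 or 81 passed the count filter. Among these, 45 (86.5%), 53 (80.3%) and 61 (75.3%) had a lower treated value in THS30 and a higher one in TNJ92 in the libraries kept out, where 15.9, 14.5 and 13.5% of all genes past the filter did. Both limits were reached by 25, 32 and 17 of them. These counts describe gene sets that only partly match the members.

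The test that the rule leaves free is the difference between the strains averaged over untreated and CdCl2-treated cultures, because the rule compared conditions only within a strain. It was made with the quasi-likelihood test of edgeR over 9070 genes. The test shares its libraries with the rule, and is free of it only where the spread is alike in all groups, which was not checked. Of the 58 members tested, 38 were lower in TNJ92 at an adjusted p below 0.05, 9 were higher and 11 were not called. Over all genes tested, 32.9% were lower and 36.4% higher. The members that were lower included the stress MAP kinase gene *sakA*, the histidine kinase genes *hk-8-1* and *hk-8-2*, and the bZIP factor gene *atfB*. At least 2-fold lower were 30 members (11.2% of all genes) and at least 8-fold lower 12 members (2.37% of all genes). The median log2 difference of the members tested was -1.14, and that of all genes tested 0.03. As a description, the same fit called 48 of the 58 lower with CdCl2 in THS30 (21.5% of all genes) and 41 higher in TNJ92 (28.3% of all genes), in the directions that the rule set. Treated replicates were all below the untreated ones in 52 of the 68 members in THS30 (19.5% of the genes tested) and all above them in 47 in TNJ92 (38.6% of the genes tested). These 2 counts were made over all members, with the 10 below the count filter, whereas the shares leave out genes below it. A member entered the counts over the 58 only if it passed the count filter, which AN11461, AN12111, AN2817 and AN5408 did through THS30. All 4 are among the 38 called lower and the 30 at least 2-fold lower. AN11461 and AN2817 are also among the 12 at least 8-fold lower. The filter favoured a lower level in TNJ92 for these 4, so that they give no support to these counts.

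**Figure D2:**
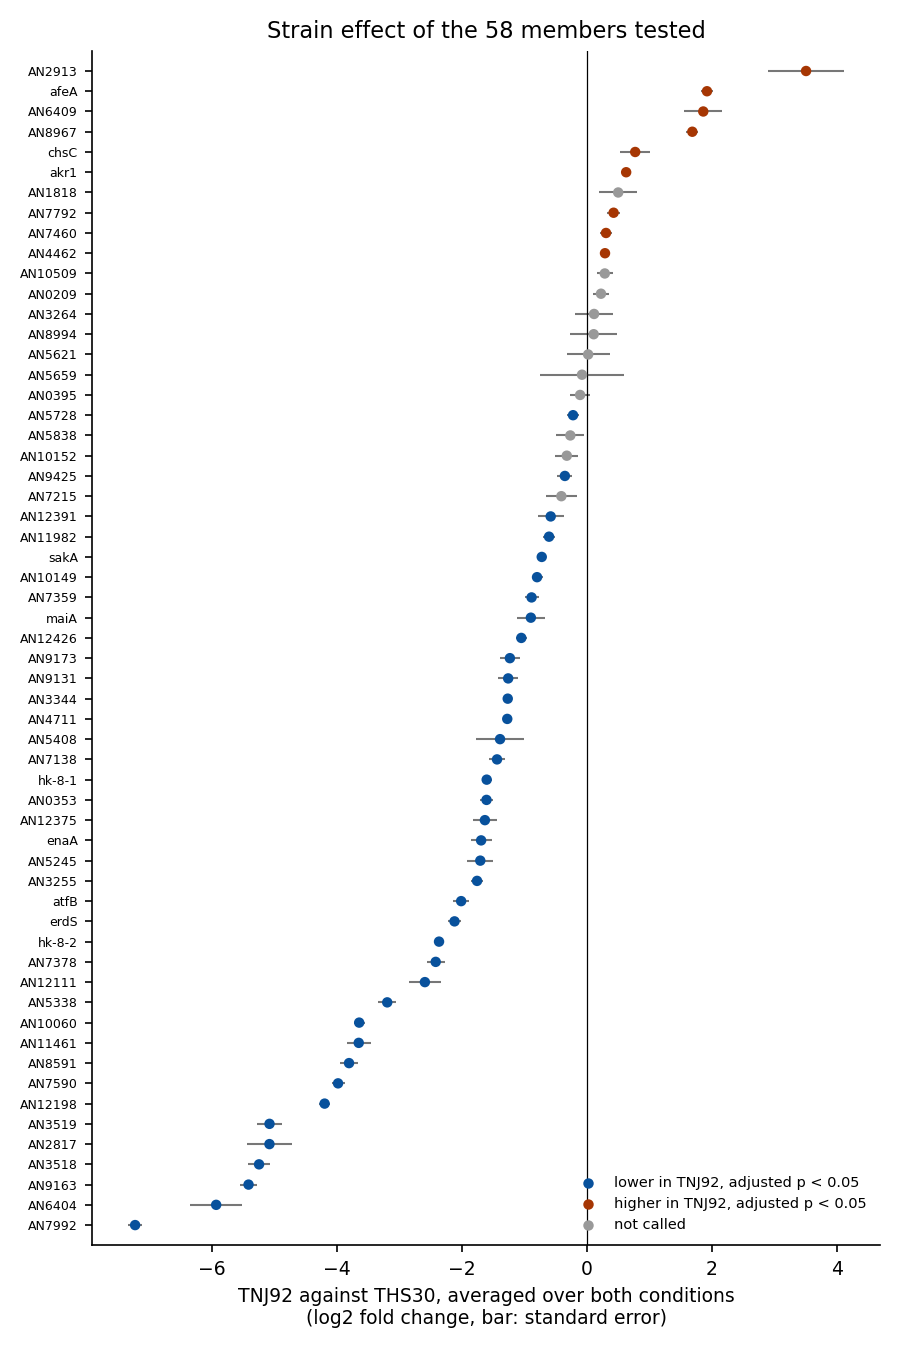
Log2 fold change of TNJ92 against THS30 averaged over both conditions, with standard errors, for the 58 members tested, ordered by size. Values run from -7.24 (AN7992) to 3.51 (AN2913), with 38 members called lower, 9 called higher and 11 not called by edgeR.

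In mean RPKM, 64 of all 68 members were lower in untreated TNJ92 than in untreated THS30. With CdCl2, 34 of these 64 were still lower in TNJ92 and 30 were higher, and the other 4 members were higher in TNJ92 in both conditions. The median member tested stood at 30.5% of the THS30 level without and 82.6% with CdCl2, while the median of all genes tested was 103% in both conditions. The rule favours genes that are low in untreated and high in treated TNJ92, so that the strain differences within a condition share libraries with it. With that limit, 46 members were called lower and 3 higher in untreated TNJ92 (29.6 and 32% of all genes), and 26 lower and 15 higher in CdCl2-treated TNJ92 (27.8% of all genes in each direction). The same 26 members were called lower in both conditions (19.5% of all genes). AN11461, AN12111 and AN2817 are among these 26 and, with AN5408, among the 46. They passed the count filter only through THS30 and so give no support to these counts. In 43 of the 58 tested members the treated mean of TNJ92 did not reach the untreated mean of THS30. For this count and for the 64 lower in untreated TNJ92, no share over all genes was taken. Both rest on group means that the rule used and are descriptions.

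**Figure D3:**
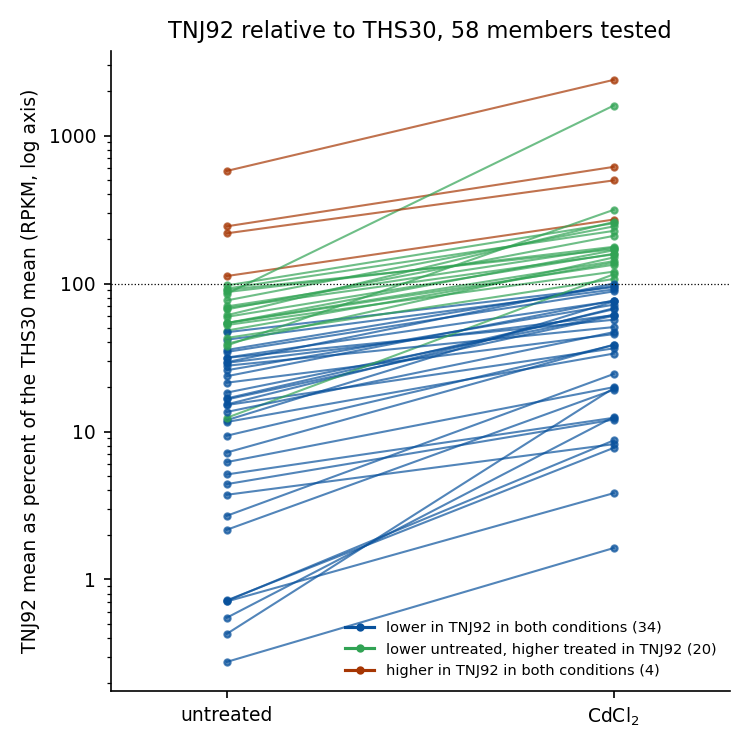
Mean RPKM of TNJ92 as a percentage of the THS30 mean without and with CdCl2, on a log axis, 1 line for each of the 58 members tested. All lines rise, as the rule requires; 34 members stay below the dotted line at 100%, 20 cross it and 4 lie above it in both conditions.

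Members in a list of the SakA cascade or in a list of phosphorelay genes are described first. Whether the histidine kinases among them act on SakA was not tested. The MAP kinase gene *sakA* (AN1017) had 299.5, 254 and 223 RPKM in untreated and 153, 149.8 and 168 RPKM in CdCl2-treated THS30. In TNJ92 it had 113, 111 and 100.4 RPKM without and 153, 148 and 129.7 RPKM with CdCl2. Untreated THS30 was the highest and untreated TNJ92 the lowest group, without overlap, while the treated groups of both strains overlapped. Averaged over conditions *sakA* was lower in TNJ92 by a log2 fold change of -0.73 ± 0.07 (SE, edgeR, adjusted p = 1.36e-07). In untreated cultures the log2 fold change was -1.27, and in treated ones it was -0.18 ± 0.10 and did not pass the test (adjusted p = 0.155).

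The histidine kinase gene *hk-8-2* (AN4113) had 117, 117 and 86.3 RPKM in untreated and 76.6, 76.9 and 85.6 RPKM in treated THS30, against 12.2, 11.8 and 13.2 and then 28.9, 26 and 25.5 RPKM in TNJ92. The THS30 groups nearly touched, whereas TNJ92 stood at 11.6% of the THS30 level without and 33.6% with CdCl2. Its averaged strain effect was -2.37 ± 0.08 (adjusted p = 3.15e-14, edgeR). *hk-8-1* (AN2581), another histidine kinase gene, had 27.8, 29.9 and 25.4 RPKM in untreated and 16.7, 15.8 and 19.1 RPKM in treated THS30, and 5.09, 4.81 and 5.30 and then 12.6, 10.3 and 8.81 RPKM in TNJ92. No 2 of its 4 groups overlapped, and the averaged strain effect was -1.61 ± 0.08 (adjusted p = 1.46e-11, edgeR).

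These kinases belong to a list of 20 phosphorelay genes taken from the study, all tested, of which they were the only members. In TNJ92, 17 of the 20 were lower and 1 was higher averaged over conditions (32.9 and 36.4% of all genes). The higher gene was *ypdA*, the phosphotransfer protein, at 0.25 ± 0.08, and *srrC* and *fphA* were not called. The median of the list was -0.58, against 0.03 for all genes. With CdCl2, 2 of the 20 genes were called higher and 6 lower in THS30 (22.5 and 21.5% of all genes). In TNJ92, 10 were called higher and 1 lower (28.3 and 28.2% of all genes). *hk-8-3* (AN6820) shows how non-members of the list differed. Its averaged strain effect was -2.14 ± 0.06, but its mean went from 30 to 42.6 RPKM in THS30 and from 5.47 to 12.6 RPKM in TNJ92.

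Of the 8 genes in a list of the SakA cascade with *atfA*, 7 were lower in TNJ92 averaged over conditions and *ypdA* was higher. Over all genes tested, 32.9% were lower. The 7 include *atfA* itself, whose call was fixed by its deletion in TNJ92. Only *sakA* was a member. The kinase gene *srkA*, whose product is a partner of SakA, was lower by -2.01 ± 0.07, with 192 and 197 RPKM in untreated and treated THS30 and 47.9 and 51.1 RPKM in TNJ92. The MAP kinase kinase gene *pbsB* was lower by -0.37 ± 0.07. With CdCl2, *sakA*, chosen for these values, had fitted log2 fold changes of -0.84 ± 0.10 in THS30 and 0.26 ± 0.10 in TNJ92. The call of *sakA* in TNJ92 was lost without the count filter (0.23). It was also lost without any of several single libraries, such as replicate 3 of untreated TNJ92 (0.19). Of the other genes of the cascade, *atfA* was called lower with CdCl2 in both strains (-0.46 ± 0.10 and -0.37 ± 0.12). The MAP kinase gene *mpkC* had -0.29 ± 0.12 in THS30, which was not called, and was called lower in TNJ92 (-0.40 ± 0.12), with no call for the difference between them. The remaining genes of the cascade were called in neither strain.

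The bZIP factor gene *atfB* (AN6849), a relative of *atfA*, had 30.3, 28.5 and 25.1 RPKM in untreated and 12.1, 11.7 and 14.9 RPKM in treated THS30. In TNJ92 it had 3.56, 3.06 and 4.75 RPKM without and 7.94, 5.57 and 4.69 RPKM with CdCl2. All TNJ92 libraries were below all THS30 libraries, and the averaged strain effect was -2.02 ± 0.13 (adjusted p = 2.35e-10, edgeR). The TNJ92 groups overlapped by 1 library.

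**Figure D4:**
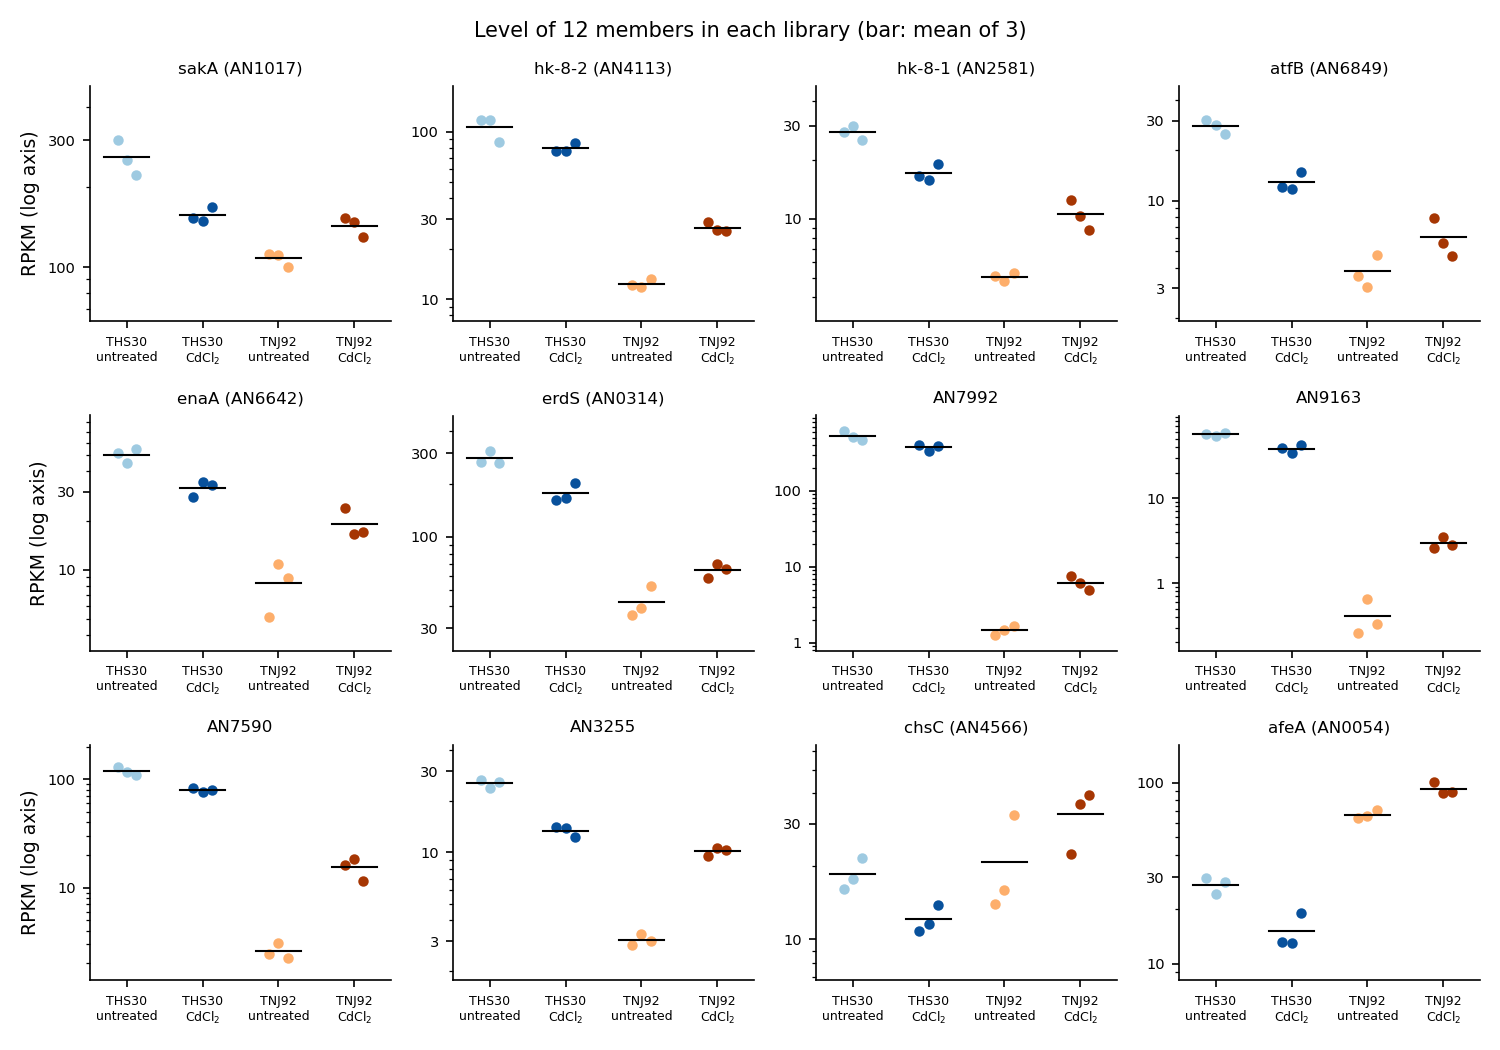
RPKM of 12 members in each of the 12 libraries on log axes, with the mean of each group of 3 as a bar. In the first 10 panels untreated TNJ92 is the lowest group; *chsC* and *afeA* are higher in TNJ92 averaged over conditions.

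Among members with a role in transport and metabolism, *enaA* (AN6642), a putative P-type ATPase for potassium or sodium, had 51.6, 45.3 and 54.8 RPKM in untreated and 27.7, 34.2 and 32.9 RPKM in treated THS30. In TNJ92 its level was 5.14, 10.9 and 8.96 RPKM without and 24, 16.5 and 17 RPKM with CdCl2. The 4 groups did not overlap, and the averaged strain effect was -1.70 ± 0.17 (adjusted p = 5.41e-06, edgeR). It was the 1 member among 21 P-type ATPase genes. Of these, 14 were lower and 3 higher in TNJ92 averaged over conditions (32.9 and 36.4% of all genes), with a median of -0.41. *enaC*, a relative of *enaA*, was lower too (-1.31 ± 0.08). Its mean, however, went from 11.6 to 14 RPKM with CdCl2 in THS30 and from 3.46 to 7.93 RPKM in TNJ92. *crpA*, a pump for copper and cadmium ions, was not a member either, with 91.7 and 152 RPKM in untreated and treated THS30 and 41 and 55.9 RPKM in TNJ92.

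*erdS* (AN0314), the gene of an enzyme that is known in *Aspergillus fumigatus* to join aspartate to ergosterol, had 269, 309 and 265 RPKM in untreated and 162, 167 and 202 RPKM in treated THS30. In TNJ92 it had 35.8, 39.1 and 52.3 RPKM without and 58, 70.3 and 65.6 RPKM with CdCl2. The 4 groups did not overlap, and *erdS* was lower in TNJ92 by -2.12 ± 0.10 averaged over conditions (adjusted p = 1.55e-11, edgeR). AN3255, a predicted glutathione peroxidase in the AN3252 secondary metabolite cluster, had 26.8, 24 and 25.9 RPKM in untreated and 14.1, 13.9 and 12.4 RPKM in treated THS30, and 2.84, 3.30 and 3.00 and then 9.50, 10.6 and 10.4 RPKM in TNJ92. It stood at 11.9% of the THS30 level without and 75.7% with CdCl2, and its averaged strain effect was -1.76 ± 0.09 (adjusted p = 1.53e-11, edgeR). AN3255 was the 1 member of 35 antioxidant enzyme genes tested. Of these, 12 were lower and 16 higher in TNJ92 averaged over conditions (32.9 and 36.4% of all genes).

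*maiA* (AN1895), the gene of maleylacetoacetate isomerase in phenylalanine breakdown, had few reads, with 1.94 to 2.95 RPKM in untreated THS30, 1.26 to 1.96 RPKM in treated THS30, 0.379 to 1.05 RPKM in untreated TNJ92 and 1.07 to 1.84 RPKM in treated TNJ92. Its averaged strain effect was -0.90 ± 0.23 (adjusted p = 0.00222, edgeR). AN12111, 1 of 17 tested genes of cysteine-rich proteins, had 24.1 to 28.2 and 13 to 21.5 RPKM in THS30 and 1.44 to 2.50 and 4.08 to 10.1 RPKM in TNJ92, with a strain effect of -2.60 ± 0.26. In treated TNJ92 its replicate 1 was more than double the others, and without that library the CdCl2 response of TNJ92 was 1.01 in place of 1.54.

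The members with the strongest strain effects carry no gene name in the sources used here. AN7992 had 614, 518 and 474 RPKM in untreated and 405, 339 and 392 RPKM in treated THS30, against 1.26, 1.5 and 1.69 and then 7.55, 6.08 and 4.89 RPKM in TNJ92. The strains were separated by far more than the spread of the libraries, and the averaged strain effect was -7.24 ± 0.11 (adjusted p = 1.50e-18, edgeR). In untreated TNJ92 AN7992 stood at 0.277% of the THS30 level, and with CdCl2 at 1.63%. AN9163 had 57.3, 54.1 and 58.6 RPKM in untreated and 38.5, 33.7 and 41.7 RPKM in treated THS30, and 0.256, 0.645 and 0.327 and then 2.55, 3.49 and 2.79 RPKM in TNJ92, which gave -5.42 ± 0.14. In both genes the rise in TNJ92 with CdCl2 started from nearly no reads and ended far below the THS30 level.

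AN7590 had 130.1, 118 and 111 RPKM in untreated and 83.5, 77.2 and 79.9 RPKM in treated THS30, against 2.45, 3.10 and 2.23 and then 16, 18.4 and 11.6 RPKM in TNJ92. AN10060 had 74.6, 64.1 and 49.1 RPKM and then 29, 27 and 26.7 RPKM in THS30, against 1.52, 1.74 and 1.80 and then 6.88, 7.09 and 6.27 RPKM in TNJ92. AN12198 had 482, 469.9 and 379.8 RPKM and then 336, 295 and 333 RPKM in THS30, against 14.7, 18.5 and 16.6 and then 26.6, 25.1 and 27.5 RPKM in TNJ92. None of the 4 groups overlapped in any of these 3 genes, and their averaged strain effects were -3.99 ± 0.10, -3.65 ± 0.09 and -4.20 ± 0.08. In each of them treated TNJ92 stayed far below treated THS30, at 19.1, 24.5 and 8.22% of its level.

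AN2817 was counted with 26 to 55 reads in a THS30 library before and 22 to 31 after CdCl2, with 1, 0 and 0 reads in untreated TNJ92 and 4, 1 and 3 reads in treated TNJ92. Its averaged strain effect of -5.09 ± 0.36 rests on the THS30 reads and on few reads of TNJ92, so that its size is uncertain.

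AN3518 and AN3519 are neighbours in the RefSeq annotation. AN3518 had 33.8, 25 and 23.6 RPKM in untreated and 12.0, 12.8 and 16.4 RPKM in treated THS30, with 2, 4 and 3 reads in untreated and 27, 40 and 33 reads in treated TNJ92. AN3519 had 25.4, 19.2 and 19.6 RPKM and then 9.09, 8.78 and 11.1 RPKM in THS30, with 0, 2 and 5 and then 53, 52 and 32 reads in TNJ92. Reads in TNJ92 were thus near 0 before CdCl2 and clearly present after it, and the averaged strain effects were -5.25 ± 0.18 and -5.08 ± 0.21 (edgeR). The flanking genes chosen after their values were seen, AN3520 and AN3517, were also lower in TNJ92 (-5.64 ± 0.23 and -6.94 ± 0.43) and were not members. AN3520 had means of 47.7 and 13.5 RPKM in THS30 and of 1.57 and 0.165 RPKM in TNJ92, and so was lower with CdCl2 in both strains.

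AN6404 had 201, 293 and 339.6 RPKM in untreated and 108, 124 and 172 RPKM in treated THS30, against 0.459, 1.70 and 3.77 and then 1.82, 6.11 and 7.56 RPKM in TNJ92. Its averaged strain effect was -5.94 ± 0.42 (adjusted p = 1.73e-06, edgeR). The THS30 groups did not overlap and the TNJ92 groups did, with fitted CdCl2 responses of -1.17 ± 0.43 and 1.23 ± 0.73.

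The most abundant member was AN5245, with 3166, 2048 and 5146 RPKM in untreated and 2983, 2335 and 2124 RPKM in treated THS30. In TNJ92 it had 641, 769 and 804 RPKM without and 1077, 979 and 1331 RPKM with CdCl2. All TNJ92 libraries were below all THS30 libraries (-1.71 ± 0.21, adjusted p = 3.11e-05, edgeR). The THS30 groups overlapped, replicate 3 of untreated THS30 stood well above the others, and the fitted CdCl2 responses were -0.61 ± 0.29 and 0.47 ± 0.29. AN7138 and AN3344, also among the 10 most abundant members, were lower by -1.44 ± 0.13 and -1.27 ± 0.06. AN7138 had 163, 190.5 and 178 and then 121, 116 and 152 RPKM in THS30, and 36.2, 51.3 and 60.3 and then 55.2, 68.4 and 74.3 RPKM in TNJ92, where the groups overlapped. AN7378, just inside the limit in THS30, was lower by -2.42 ± 0.15, with 10.4 to 12.9 and 7.90 to 10.1 RPKM in THS30 and 0.800 to 1.51 and 3.26 to 3.53 RPKM in TNJ92.

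A smaller group of members crossed over, being lower in TNJ92 without and higher with CdCl2. AN0209, AN0395, AN5728, AN7460, AN7792 and AN8994 passed the test in both directions (1.28% of all genes). This pattern is the one that the rule favours most. AN7460 had 39.9, 36.2 and 38.6 RPKM in untreated and 23.2, 19.4 and 25.2 RPKM in treated THS30, against 25.5, 23.4 and 21.1 and then 73.1, 52 and 51.7 RPKM in TNJ92. Untreated TNJ92 overlapped with treated THS30, and treated TNJ92 was above every other library. AN7792 had 29.7 to 32.8 RPKM in untreated and 15.1 to 24.8 RPKM in treated THS30, and 20.1 to 27.4 and then 48.1 to 52.9 RPKM in TNJ92. AN8994 had 9.97, 9.81 and 17.3 RPKM and then 2.92, 2.61 and 4.47 RPKM in THS30, and 2.64, 4.09 and 7.40 and then 4.74, 10.3 and 16.5 RPKM in TNJ92. Its TNJ92 groups overlapped, and its averaged strain effect was 0.11 ± 0.38.

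*akr1* (AN7193) was called between the strains with CdCl2 and not without it. It had 167, 151 and 158 RPKM in untreated and 94.1, 93.3 and 91.3 RPKM in treated THS30, and 158, 167 and 137 and then 261, 235 and 216 RPKM in TNJ92. The untreated groups overlapped (log2 fold change -0.06, adjusted p = 0.581), and treated TNJ92 was 256% of treated THS30 (1.31 ± 0.09, adjusted p = 1.73e-09, edgeR). AN4462 was likewise called with CdCl2 and not without it (adjusted p = 0.102), with 155 to 173 and 104 to 111 RPKM in THS30 and 132 to 149.5 and 159 to 217 RPKM in TNJ92, and a treated strain difference of 0.78 ± 0.11.

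The members that were higher in TNJ92 in mean RPKM in both conditions were *afeA*, AN8967, *chsC* and AN2913. *afeA* (AN0054) had 29.8, 24.2 and 28.2 RPKM in untreated and 13.2, 13 and 19.2 RPKM in treated THS30, and 63.5, 65.6 and 71 and then 101, 88.3 and 89.2 RPKM in TNJ92. AN8967 had 9.64, 11.9 and 14.6 and then 8.56, 8.26 and 9.61 RPKM in THS30, and 28.6, 25.2 and 25.2 and then 45.1, 44.1 and 42.3 RPKM in TNJ92. In both genes all TNJ92 libraries were above all THS30 libraries, with averaged strain effects of 1.92 ± 0.10 and 1.69 ± 0.09. With AN2913 these were the 3 members in which the strains were separated upwards, against 29 members in which all 6 TNJ92 libraries were below all 6 THS30 libraries. Over all genes tested the shares were 13% upwards and 13.8% downwards. AN11461, AN12111 and AN2817 are among the 29. They passed the count filter only through THS30 and give no support to that count.

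*chsC* (AN4566; *chsA* in RefSeq), a chitin synthase gene, was the 1 member among 82 tested genes of cell wall biosynthesis and degradation. It had 16.1, 17.8 and 21.7 RPKM in untreated and 10.9, 11.6 and 13.8 RPKM in treated THS30, and 14, 16.1 and 32.4 and then 22.6, 36.1 and 39.5 RPKM in TNJ92. The averaged strain effect was 0.77 ± 0.24 (adjusted p = 0.018, edgeR), and the fitted CdCl2 responses were -0.74 ± 0.35 and 0.52 ± 0.33. Replicate 3 of untreated TNJ92 was double the others, and without it the responses were -0.74 in THS30 and 0.97 in TNJ92. Of the 82 cell wall genes, 43 were lower and 20 higher in TNJ92 averaged over conditions (32.9 and 36.4% of all genes). Their median was -0.23, so that *chsC* differed in direction from most of the list.

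AN6409 was near 0 in 3 groups and present in the last. It had 1.04, 0.782 and 0.885 RPKM in untreated and 0.512, 0.574 and 0.189 RPKM in treated THS30, and 0.373, 0.403 and 1.53 and then 6.16, 7.15 and 7.02 RPKM in TNJ92. The treated TNJ92 libraries held 108 to 129 reads and the 9 others 3 to 30. Its averaged strain effect was 1.86 ± 0.31, with 3.92 ± 0.38 in treated and -0.20 (adjusted p = 0.71, edgeR) in untreated cultures.

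AN2913 had the highest strain effect of the members and a wide spread. It had 5.78, 11.7 and 24.6 RPKM in untreated and 5.49, 5.52 and 9.99 RPKM in treated THS30, and 30.4, 51.8 and 161 and then 68.8, 169 and 262 RPKM in TNJ92. Every TNJ92 library was above every THS30 library (3.51 ± 0.61, adjusted p = 0.000833, edgeR), but treated and untreated groups overlapped within TNJ92. In the RefSeq order AN2913 lies 4 genes from *atfA*, the gene replaced in TNJ92. Of the nearby genes, AN2912 and AN2914 were also higher in TNJ92 (1.47 ± 0.27 and 1.09 ± 0.06), as was AN2909 on the other side of *atfA* (0.44 ± 0.06). AN2910, between AN2909 and *atfA*, was not called averaged over conditions (0.05 ± 0.08) and was called higher in treated cultures (0.33 ± 0.11). Farther from *atfA* than AN2909, AN2907 and AN2906 were not called averaged over conditions (0.10 ± 0.06 and -0.11 ± 0.06). Both were called lower in treated cultures (-0.33 ± 0.08 and -0.27 ± 0.09), and AN2907 was called higher in untreated ones (0.52 ± 0.08). What the place of AN2913 beside the replaced gene contributes was not tested.

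The RefSeq annotation matched 52 members and 10037 genes of the table. Members lay on all 8 chromosomes, where they made up 0.368% (chromosome II) to 0.857% (chromosome IV) of the matched genes. Besides AN3518 and AN3519, the pairs of members at most 10 genes apart were AN0353 and AN10060 (2 apart), AN6404 and AN6409 (5 apart) and AN3255 and AN3264 (10 apart). The first of these pairs was lower in TNJ92 in both genes, whereas AN6404 was lower and AN6409 higher.

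The members tested had a median transcript length of 1381 bases and a median mean level of 22.5 RPKM, against 1593 bases and 18.9 RPKM for all genes tested. Other groups of genes that the study examined held no member, among them ribosome biogenesis (185 genes tested), DNA repair (82), autophagy (26), glycolysis (20) and zinc transporters (7). The same was true of the velvet and sexual development regulators (6), trehalose and glycerol metabolism (5) and 4 reference genes. Only 58 of the 9070 genes tested were members. At that share lists of these sizes would hold few members or none, so that their lack is not read as a result. The opposite pattern, up in THS30 and down in TNJ92, was met by 84 genes. Of the 68 of them that were tested, 8 were lower and 41 higher in TNJ92 averaged over conditions (32.9 and 36.4% of all genes). At least 2-fold lower were 5 (11.2% of all genes) and at least 2-fold higher 3. The median of the 68 was 0.26.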

How the data were processed

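Single reads of 75 bases had been mapped with HISAT2 2.1.0 onto the *A. nidulans* FGSC A4 genome, according to the study and the submitters' notes. The authors deposited raw counts per gene and library, the transcript length and RPKM values. Counting program and strand setting were not given in the sources used here, so reads of overlapping and antisense genes cannot be told apart. The deposited RPKM equal counts per kilobase divided by the column total, with a largest relative difference of 6.46e-15.

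Members were chosen by the rule on RPKM, and members and gene lists were taken with earlier results of these data known. Counts were filtered with filterByExpr (edgeR 4.0.16, minimum count 10, smallest group 3), which left 9070 genes, scaled by TMM and fitted with the robust quasi-likelihood model over 4 groups in 12 libraries. The common biological coefficient of variation was 0.109. Adjusted p values are Benjamini-Hochberg values over all genes tested, with 0.05 as the threshold, and the fit was tested on simulated data. Replicates are biological according to the study. Gene lists came from the study (19) and from 5 own lists: SakA cascade, conidia, reference genes, velvet regulators, and trehalose and glycerol metabolism. No fitted list was set against other genes by a test. Over all genes tested, 32.9% were lower and 36.4% higher in TNJ92 in the averaged strain effect. In the averaged strain effect, 1 of 4 reference genes was higher and 1 lower, in the velvet list 3 of 6 were higher and 1 lower, in the trehalose and glycerol list 2 of 5 were higher and 3 lower, and of 9 conidial markers tested 4 were lower and none higher in TNJ92.

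Named genes were members with a symbol, members of a list, the 10 with the largest difference of L among those with a group mean of at least 10 RPKM, the 10 most abundant, 3 on each side of the limits, the 5 lowest and 5 highest averaged strain effects, and *atfA*: 35 genes, 31 of them members. Other genes named were chosen after their values were seen. Symbols came from the study and RefSeq (assembly ASM1142v1), which was used only for names and order. The alternatives were other pseudocounts, limits and scalings of the rule, RLE and library totals, no filter, DESeq2 1.42.0, a replicate block and each library left out.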

Additional observations from a re-analysis of the deposited data

Results flagged for a closer look

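The test of the difference between the CdCl2 responses of the strains was passed by 49 of the 58 members tested (edgeR, adjusted p below 0.05), all in the direction that the rule fixes, against 13.2% of all genes tested in that direction. The rule used these responses, so that the count is a description.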

How the results depend on the processing

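The number of members by the rule moved from 68 to 176 with a pseudocount of 0.1 RPKM and to 33 with 5 RPKM, and to 126 or 36 with limits of 0.3 or 0.5. Leaving out 1 library gave 60 to 87 genes, medians in place of means 92 genes (53 of them members) and the count filter 58.

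The counts of members called kept within 1.5 times their value under RLE scaling, library totals, no filter, DESeq2 and each library left out. Over single libraries left out, members lower in TNJ92 averaged over conditions numbered 36 to 39 and members higher 9 to 11. In untreated cultures they numbered 44 to 47 and 2 to 3, and in treated ones 25 to 28 and 12 to 15. The averaged strain effect of every named member kept its direction and call in all 527 alternative values. CdCl2 responses of named members lost a call in 26 alternative values in THS30 and 44 in TNJ92 and gained one in 13 and 10, and none turned its direction.

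Replicate numbers were shared by the groups. Same-numbered libraries deviated together in 12 of 18 pairs (r above 0.1, range -0.13 to 0.32), all of those of numbers 1 and 3 and none of number 2. Of the 12 libraries, 8 correlated best with their own number. Libraries numbered 1 and 3 thus shared part of their spread across groups. The labels do not say whether the numbers pair samples, and the main fit did not use them. With a replicate block, 38 members were lower and 11 higher averaged over conditions, 47 and 3 in untreated and 28 and 16 in treated cultures. Of the named members, the block gave calls that were missing without it to the CdCl2 responses of AN2913 (-1.03 in THS30 and 1.04 in TNJ92), *chsC* (-0.73 and 0.55) and AN6404 (-1.16 and 1.24) in both strains and of AN8994 (1.00) and AN7138 (0.29) in TNJ92, and it took that of AN2817 (2.50) in TNJ92. The planned search of promoters for motifs was not run, because no promoter sequences were at hand. Depth limits members with few reads, such as AN2817, *maiA* and the transfer RNA genes.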

Other observations

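A few members moved with the replicate number across all groups. In AN1818, AN2913, AN3264, AN5659, AN5838, AN6404 and *chsC* the library numbered 1 was the lowest and the library numbered 3 the highest in each of the 4 groups. This held for 7 of the 58 members tested (12.1%) and for 87 of the 9070 genes tested (0.959%). AN5659 had 9.33, 41 and 61.5 RPKM in untreated and 12.5, 14 and 35.9 RPKM in treated THS30, and 7.78, 11.3 and 47.4 and then 9.12, 36.4 and 53.6 RPKM in TNJ92. AN3264 had 11.6, 17.2 and 23.2 and then 9.55, 10.3 and 12.5 RPKM in THS30, and 5.81, 11.4 and 19.2 and then 13.8, 18.7 and 24.2 RPKM in TNJ92. Within each number, all of these genes except AN5659 were lower with CdCl2 in THS30 and higher in TNJ92, in the directions that the rule set. The pattern was noticed in these data, and its cause was not tested.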
